A study of Mus musculus with 6 samples.

Results

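The miRNAs described here are the products of a pair of related mouse clusters, 23a/27a/24-2 on chromosome 8 and 23b/27b/24-1 on chromosome 13. Rows were taken by name, as miR-23a, miR-23b, miR-24, miR-27a, miR-27b and their star arms, which gave 11 of the 1055 mature miRNAs in the tables. Of these, 5 rows belong only to the 23a/27a/24-2 cluster and 5 only to the 23b/27b/24-1 cluster. The remaining row, miR-24, has the same mature sequence in both clusters, so its reads cannot be assigned to either. Small RNAs (19–25 nucleotides) were sequenced from whole brains of 3 wild-type and 3 Adar2-/- adult female mice of the 129SV strain, siblings aged 5.5 months. All 6 mice were homozygous for the pre-edited Gria2 allele (Gria2 R/R), which rescues the early lethality of Adar2 deficiency, so the wild-type mice carry it as well. ADAR2 deaminates adenosines to inosines in double-stranded RNA, and the comparison asks whether its loss alters the abundance of mature miRNAs. A whole brain mixes many cell types, so fewer cells of a type and less RNA per cell cannot be told apart.

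A miRNA cluster is transcribed as 1 primary RNA that holds several hairpins. Drosha cuts the hairpins out, Dicer releases a duplex from each, and usually the guide arm is kept while the star arm is degraded. The seed, bases 2 to 8 of the mature miRNA, directs it to its target mRNAs. The miR-23, miR-27 and miR-24 genes are best known from blood vessels, muscle, fat and glia. miR-23a and miR-23b repress glutaminase, and miR-23a also represses lamin B1 in myelinating cells. miR-27a and miR-27b restrain the formation of fat cells and regulate lipid metabolism, and miR-24 restrains the cell cycle. In the names used here the star arm is the 5p arm and the guide arm the 3p arm of each hairpin.

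The sequences show which arms can be told apart by sequencing. RefSeq mature sequences were matched for 10 of the 11 rows, all but miR-23b, with the seed in capitals:
miR-24: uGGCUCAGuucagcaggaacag
miR-23a: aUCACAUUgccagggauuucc
miR-27a: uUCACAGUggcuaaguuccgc
miR-27b: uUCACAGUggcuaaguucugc
miR-24-2*: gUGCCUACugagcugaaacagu
miR-24-1*: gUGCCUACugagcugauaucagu
miR-27a*: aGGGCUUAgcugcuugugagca
miR-27b*: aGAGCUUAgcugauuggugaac
miR-23a*: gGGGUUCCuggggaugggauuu
miR-23b*: gGGUUCCUggcaugcugauuu

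miR-27a and miR-27b share their seed and their first 18 bases and differ by a single substitution, C19U (positions counted from 1 at the 5′ end, miR-27a first), after which 2 bases follow. A read that ends before this base matches both equally well. Reads that matched several miRNAs equally well were weighted by the authors, and how many reads were shared in this way between miR-27a and miR-27b was not analysed here. The star arms of miR-24 also share a seed, but they separate after 16 bases and differ in length, 22 bases in miR-24-2* and 23 in miR-24-1*. The star arms of miR-27 diverge after 2 bases and those of miR-23 after 3, and neither pair shares a seed. The seeds of miR-23a and miR-27a differ at 1 base, U7G. Among the 1679 mature miRNAs of the RefSeq table the miR-27 seed occurs 2 times, in miR-27a and miR-27b. The miR-23a seed occurs once there, but miR-23b has no entry and is not counted. Whether miR-23a and miR-23b share a seed therefore cannot be read from this count.

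The hairpins show how both clusters give the same miR-24 guide. In the sequences below, both mature arms are in capitals, the star arm first:
Mir24-2: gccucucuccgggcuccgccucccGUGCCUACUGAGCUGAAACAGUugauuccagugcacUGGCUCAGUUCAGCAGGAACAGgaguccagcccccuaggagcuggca
Mir24-1: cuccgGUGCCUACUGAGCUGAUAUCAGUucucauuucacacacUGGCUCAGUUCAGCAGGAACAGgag
Mir27a: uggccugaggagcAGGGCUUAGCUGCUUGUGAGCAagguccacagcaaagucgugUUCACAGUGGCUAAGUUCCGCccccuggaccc
Mir27b: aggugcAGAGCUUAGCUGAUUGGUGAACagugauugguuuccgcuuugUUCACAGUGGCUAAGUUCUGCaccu

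The RefSeq hairpin sequences (GRCm38.p6) were each found once, without mismatch, on the chromosome of NCBIM37 (mm9), the build named in the labels. On its plus strand Mir23a lies at chr8:86732417-86732491, Mir27a at chr8:86732571-86732657 and Mir24-2 at chr8:86732714-86732820. This cluster spans 404 bp, with 79 and 56 bp between the hairpins. It overlaps no annotated protein-coding gene, and the nearest, Zswim4, lies 1757 bp from Mir24-2 on the other strand. Mir23b lies at chr13:63401792-63401865, Mir27b at chr13:63402020-63402092 and Mir24-1 at chr13:63402516-63402583, also on the plus strand. This cluster is looser, spanning 792 bp with 154 and 423 bp between the hairpins. It lies within 2010111I01Rik on the same strand and overlaps none of its annotated exons, so the position is intronic.

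Total mapped miRNA reads ran from 12449633 to 23935544 per library, with the lowest total in wild-type replicate 1. Abundance is a count scaled to 1000000 reads of its own library (RPM). Together the 11 rows held 1.04%, 0.972% and 0.886% of a library in the 3 wild-type brains, in the order of their numbers, and 0.828%, 1.25% and 1.68% in the 3 Adar2-/- brains. All values below are in this order. The 95% Wilson intervals of these shares reach at most 0.00564 percentage points to either side and cover counting error only. Adar2-/- replicates 2 and 3 had the highest shares and Adar2-/- replicate 1 the lowest, so the genotypes overlapped. miR-24 alone made up 72.4% to 77.2% of the reads on the 11 rows in each library.

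Levels spanned more than 4 orders of magnitude and kept nearly the same order in every library. miR-24 stood highest, at 7558, 7503 and 6624 RPM in wild type against 6191, 9569 and 12766 RPM in Adar2-/-. It ranked between 18 and 27 among all mature miRNAs of a library. Wild-type libraries lay close together for miR-24, whereas the Adar2-/- libraries lay on both sides of them.

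**Figure D1:**
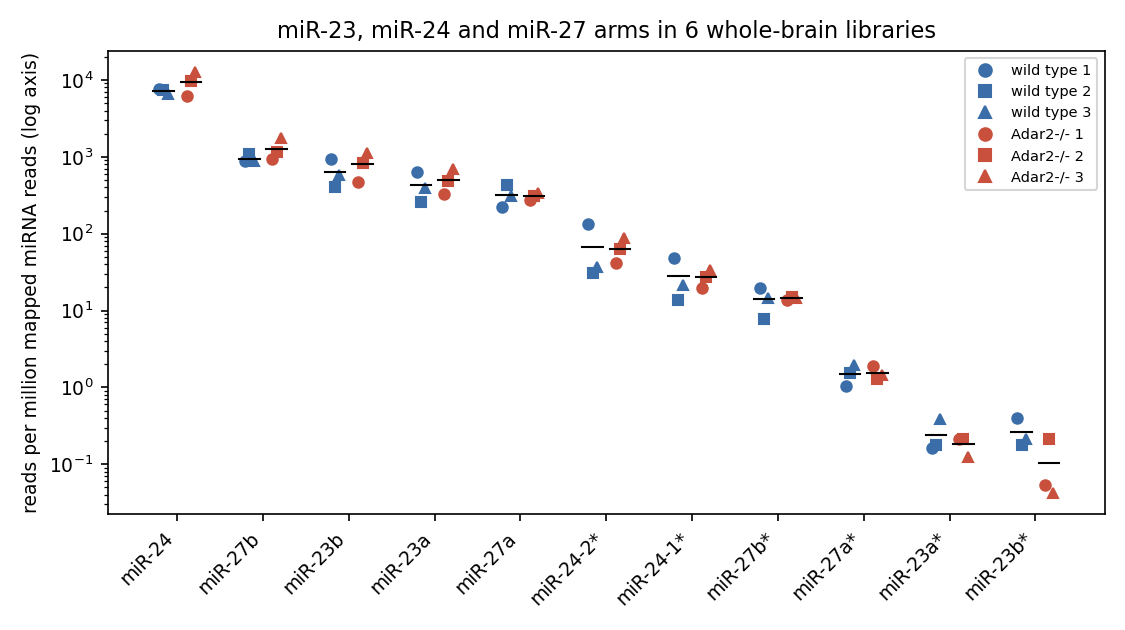
Abundance in RPM (log axis) of the 11 rows, ordered by their mean over 6 libraries. Each point is 1 library, blue for wild type and red for Adar2-/-, with a symbol for each replicate number, and black bars are the means of 3 libraries. miR-24 stands highest, near 8369 RPM on average, and the star arms of miR-23 lowest, below 1 RPM in every library.

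The guide arms of the cluster on chromosome 13 came next in the mean over 6 libraries. miR-27b stood at 877, 1084 and 890.0 RPM in wild type and at 942, 1170 and 1732 RPM in Adar2-/-. miR-23b stood at 941, 401 and 574 RPM in wild type and at 470, 821 and 1123 RPM in Adar2-/-. miR-27b exceeded miR-23b in 5 of 6 libraries, the exception being wild-type replicate 1, so the order of this pair is not fixed. For both guides the genotypes overlapped, and Adar2-/- replicate 3 was the highest library.

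The guide arms of the cluster on chromosome 8 were lower than their partners in 6 of 6 libraries. miR-23a stood at 628, 257 and 390 RPM in wild type and at 327, 479 and 701 RPM in Adar2-/-. miR-27a stood at 225, 425 and 306 RPM in wild type and at 272, 313 and 343 RPM in Adar2-/-. These neighbours in the order cannot be separated either, since miR-27a exceeded miR-23a in 1 of 6 libraries, wild-type replicate 2. miR-27a was highest and miR-23a lowest in that library, where miR-27a (425 RPM) also stood above miR-23b (401 RPM).

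Among star arms those of miR-24 stood highest. miR-24-2* had 1679, 696 and 866 reads in wild type and 771, 1480 and 2078 in Adar2-/-, which is 135, 30.6 and 36.9 RPM and 41.3, 62.8 and 86.8 RPM. miR-24-1* stood at 48.9, 13.5 and 21.5 RPM in wild type and at 19.4, 27.5 and 34.0 RPM in Adar2-/-. Wild-type replicate 1 was by far the highest library for both, and wild-type replicate 2 the lowest. The chromosome 8 product exceeded the chromosome 13 product in 6 of 6 libraries, the reverse of the order of the miR-23 and miR-27 guides.

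miR-27b* stood at 19.9, 7.86 and 14.4 RPM in wild type and at 13.5, 15.1 and 14.7 RPM in Adar2-/-. miR-27a* had only 13 to 46 reads per library, miR-23a* 2 to 9 and miR-23b* 1 to 5. A minimum of 100 reads per library was set for testing, and these 3 rows fell short of it, which left 8. The 2 star arms of miR-23 had 27 and 21 reads over all libraries together, against 56978 reads for miR-23a and 89327 for miR-23b. At this depth no difference between genotypes was detectable for them.

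The 2 genotypes were compared by edgeR's quasi-likelihood test over all 399 miRNAs that reached the minimum, and a log2 fold change above 0 means more reads in Adar2-/-. None of the 8 rows tested passed the adjusted threshold of 0.05, and the background was 0 of 399 miRNAs (0.0%). At an unadjusted p under 0.05 the count was 0 of 8 against 13 of 399 (3.26%). DESeq2 also called 0 of 8, against 1 of 399 (0.251%), and 0 of 8 against 40 of 399 (10.0%) at an unadjusted p under 0.05. The log2 fold change was above 0 for 5 of 8 rows and for 50.4% of all miRNAs tested, with a median of 0.14 over the 8 rows and 0.0023 over all 399. In 6 of the 8 rows, all but miR-27a and miR-27b, the ratio of Adar2-/- to wild type was below 1 in replicate 1 and above 1 in replicates 2 and 3, and 35.3% of all miRNAs tested shared this pattern.

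miR-27b had the largest log2 fold change of the 8 rows, 0.43 (standard error 0.340, edgeR adjusted p = 0.988). Mean levels were 950 ± 116 RPM in wild type and 1281 ± 406 RPM in Adar2-/- (SD, n = 3 each), a 1.35-fold difference with p = 0.2 in an exact permutation test of the RPM (two-sided), which cannot give less than 0.1 with groups of 3. By replicate number the ratio was 1.07, 1.08 and 1.95. miR-27b was thus the row, 1 of 8, that was higher in Adar2-/- in all 3 replicate numbers and by at least 1.3-fold in the mean, which is the study's abundance rule without its test. Of all 399 miRNAs, 22 (5.51%) met this rule and 9.02% were higher in all 3 numbers whatever the size. None of the 8 rows was lower in all 3 numbers (7.02% of all miRNAs tested), with or without the 1.3-fold minimum (4.26%). Without Adar2-/- replicate 3 the log2 fold change of miR-27b was 0.15 and that of miR-24 0.12.

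miR-24 averaged 7229 ± 524 RPM in wild-type and 9509 ± 3288 RPM in Adar2-/- brains (SD, n = 3 each), with a log2 fold change of 0.40 (standard error 0.342, edgeR adjusted p = 0.988). The ratio was 0.819, 1.28 and 1.93 in replicates 1 to 3. For miR-23b the log2 fold change was 0.33 (standard error 0.431) and for miR-23a 0.24 (standard error 0.422). Their ratios were 0.499 for miR-23b and 0.521 for miR-23a in replicate 1 and between 1.80 and 2.05 in replicates 2 and 3. The wild-type libraries differed from each other by 2.35-fold for miR-23b and 2.45-fold for miR-23a, more than the ratios of the genotype means, 1.26 and 1.18.

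The other rows had log2 fold changes within 0.1 of 0. miR-27a stood at -0.04 (standard error 0.339), miR-24-2* at -0.08 (standard error 0.561), miR-24-1* at -0.05 (standard error 0.476) and miR-27b* at 0.04 (standard error 0.376). For the miR-24 star arms these values rest on wild-type replicate 1. Without that library the log2 fold change was 0.92 for miR-24-2* (edgeR adjusted p = 0.669) and 0.62 for miR-24-1*, and without replicate 1 of both genotypes it was 1.15 for miR-24-2* (edgeR adjusted p = 0.0612) and 0.81 for miR-24-1*. In that last fit 4 of the 8 rows, the miR-24 star arms, miR-23a and miR-23b, had an unadjusted p under 0.05, as did 87 of all 399 miRNAs. No row passed the threshold in any of the 16 alternative fits, and for miR-24-2* the adjusted p ran from 0.0612 to 0.998 over them.

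**Figure D2:**
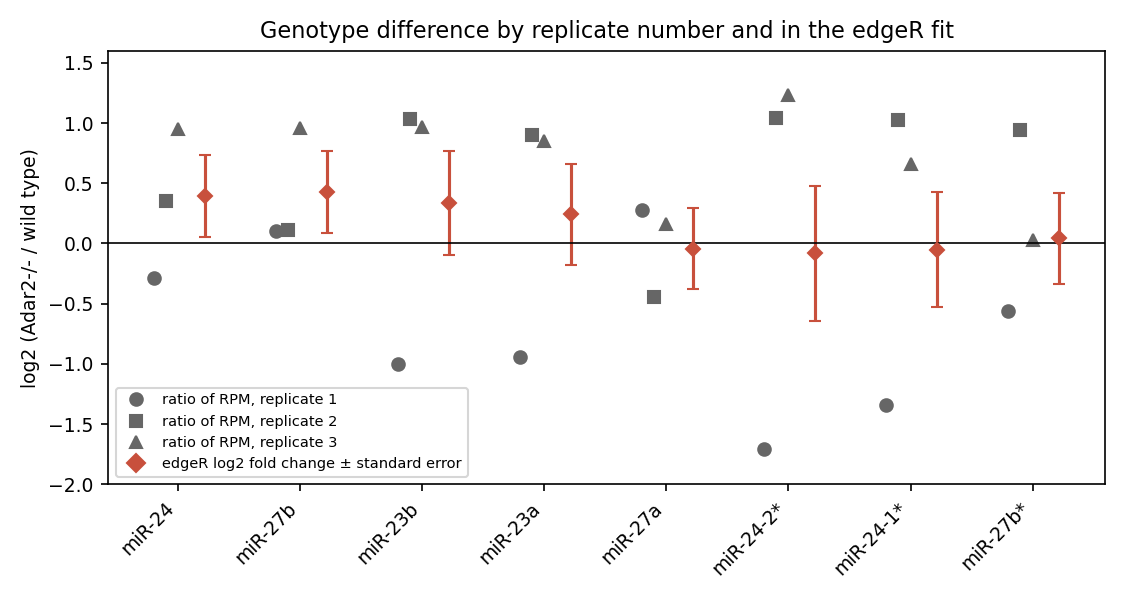
log2 of Adar2-/- over wild type for the 8 rows tested. Grey symbols are the ratios of RPM within a replicate number, and red diamonds are edgeR log2 fold changes with their standard errors. For 6 rows replicate 1 lies below 0 and replicates 2 and 3 above it, and miR-27b is the row with all 3 symbols above 0.

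The libraries in which a row stood high or low differed between the miRNAs. miR-23a, miR-23b and both miR-24 star arms were high in wild-type replicate 1 and lowest in wild-type replicate 2, whereas miR-27a was lowest in the first and highest in the second of these libraries. miR-24 and miR-27b varied little among the wild-type libraries, by 1.14-fold and 1.24-fold.

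**Figure D3:**
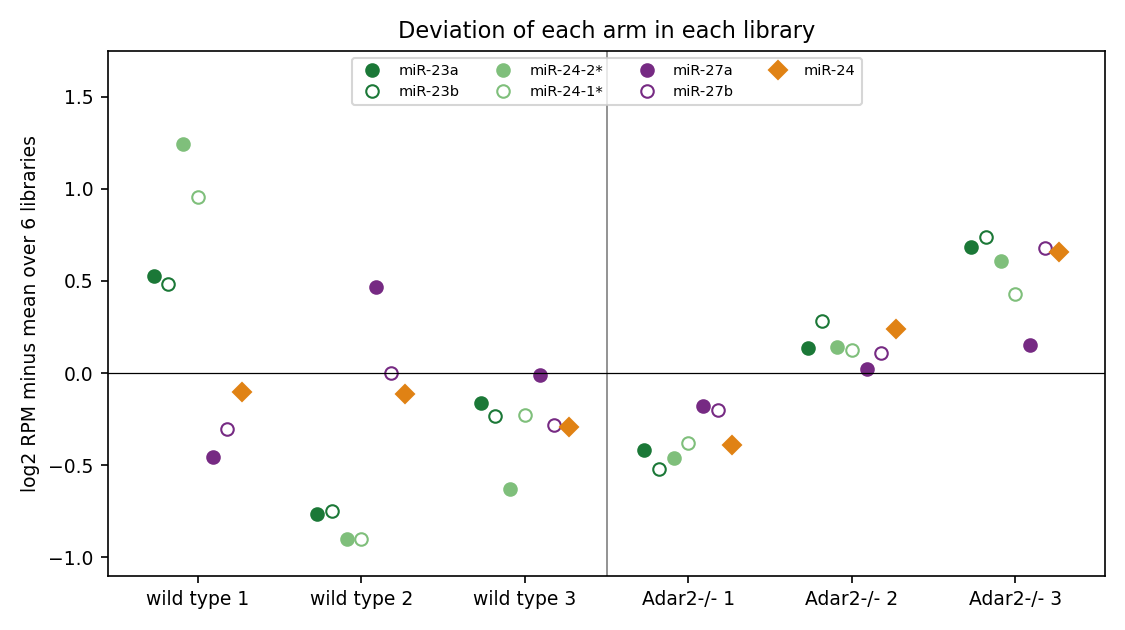
log2 RPM of 7 arms in each library, minus the mean of that arm over the 6 libraries. Green symbols are miR-23a, miR-23b and the miR-24 star arms, purple symbols miR-27a and miR-27b, and orange diamonds miR-24, with filled circles for the chromosome 8 cluster and open circles for the chromosome 13 cluster. In wild-type replicate 1 the green symbols lie above 0 and the purple ones below.

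Of the 13 pairs of rows examined, miR-23a and miR-23b followed each other most closely. Their ratio within a library needs no scaling, and it was 0.668, 0.640 and 0.678 in wild type and 0.696, 0.583 and 0.624 in Adar2-/-. It thus varied 1.19-fold over 6 libraries, while miR-23a varied 2.73-fold and miR-23b 2.80-fold in RPM. Expressed as the SD of the log2 ratio over the 6 libraries the spread was 0.0929, and 0.0693% of all 79401 pairs of tested miRNAs had a smaller one. Pearson's r between the log2 RPM of miR-23a and miR-23b was 0.989 over the 6 libraries, a description of points that share library and depth.

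For miR-24-2* and miR-24-1* the ratio ran from 1.71 to 2.76 (SD of the log2 ratio 0.236, with 3.42% of all pairs below). For miR-27a and miR-27b it was 0.256, 0.392 and 0.343 in wild type and 0.289, 0.268 and 0.198 in Adar2-/- (SD 0.345, with 12.9% of all pairs below). The median SD over all pairs was 0.602.

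Between the miR-23 and miR-27 guides of the same cluster the spread was wider than between partners. The ratio of miR-27a to miR-23a ran 4.64-fold, from 0.357 in wild-type replicate 1 to 1.66 in wild-type replicate 2, with an SD of the log2 ratio of 0.755. The ratio of miR-27b to miR-23b ran 2.90-fold, from 0.932 to 2.70 in the same libraries, with an SD of 0.514. The star arm of miR-24 stayed closer to the miR-23 guide of its cluster (SD 0.278 for miR-24-1* to miR-23b, 0.389 for miR-24-2* to miR-23a) than to the miR-27 guide (0.707 and 1.04). Whether reads shared between near-identical guides take part in the tight ratio of the partners was not tested. miR-24 was compared in this way only with miR-27b and with its own star arms. Its ratio to miR-27b varied least, 1.31-fold (SD 0.146). To its star arms the ratio varied 3.59-fold for miR-24-1* and 4.38-fold for miR-24-2*.

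In each of the 8 single ratios with at least 10 reads on both sides the genotypes overlapped, for the balance between clusters and between arms. The exact permutation test cannot give less than 0.1 with groups of 3, so no ratio could pass the threshold of 0.05. The largest difference in a partner ratio was that of miR-27a to miR-27b, whose log2 value averaged -1.62 ± 0.315 in wild type and -2.01 ± 0.288 in Adar2-/- (SD, n = 3 each). The difference of Adar2-/- minus wild type was -0.39, with p = 0.3 in the exact permutation test and a Benjamini-Hochberg adjusted p of 1.0 over the 8 ratios. It was -0.23 without Adar2-/- replicate 3 and -0.26 without wild-type replicate 2. For miR-23a to miR-23b it was -0.06 (exact p = 0.6) and for miR-24-2* to miR-24-1* 0.07 (exact p = 0.8), with an adjusted p of 1.0 for both. Ratios of guide to star were 145 to 277 for miR-27a and 44.0 to 138 for miR-27b. Their genotype differences were -0.05 and 0.25 on the log2 scale, with an adjusted p of 1.0 for both in the exact permutation test. For the hairpins of miR-23 the star arms had too few reads for a ratio.

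Summed over its 5 own rows, the chromosome 8 cluster averaged 812 ± 153 RPM in wild type against 877 ± 245 RPM in Adar2-/-, and the chromosome 13 cluster 1632 ± 221 against 2127 ± 734 RPM (SD, n = 3 each). For both the difference was smaller than the SD of the Adar2-/- libraries. The log2 ratio of the means was 0.38 for the chromosome 13 cluster, 0.035 without replicate 3 of both genotypes and 0.71 without replicate 1. Within a library, the chromosome 8 cluster took 34.4%, 32.2% and 32.9% of the reads on both sets of 5 rows in wild type and 30.8%, 29.6% and 28.0% in Adar2-/-. The genotypes did not overlap in this share. In the RPM of single miRNAs they did not overlap for 5.76% of the 399 tested and for 0 of the 8 rows. A share of summed rows is another measure, and no such background was computed for it. The share averaged 33.1% ± 1.13 in wild type and 29.5% ± 1.37 in Adar2-/- (SD, n = 3 each), a difference of -3.65 percentage points. This share was singled out after its values were seen and is a description without a test.

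No single pair of arms gave this separation, since the ratio of miR-27a to miR-27b overlapped between genotypes as well. Without the miR-27 rows the shares were 43.5%, 40.9% and 41.7% in wild type and 43.0%, 39.0% and 40.5% in Adar2-/-, which overlap. Without the miR-23 rows they were 27.6%, 29.3% and 27.1% against 24.4%, 23.7% and 19.5%, which do not. With the star arms alone the difference was 1.02 percentage points in the other direction and the genotypes overlapped.

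**Figure D4:**
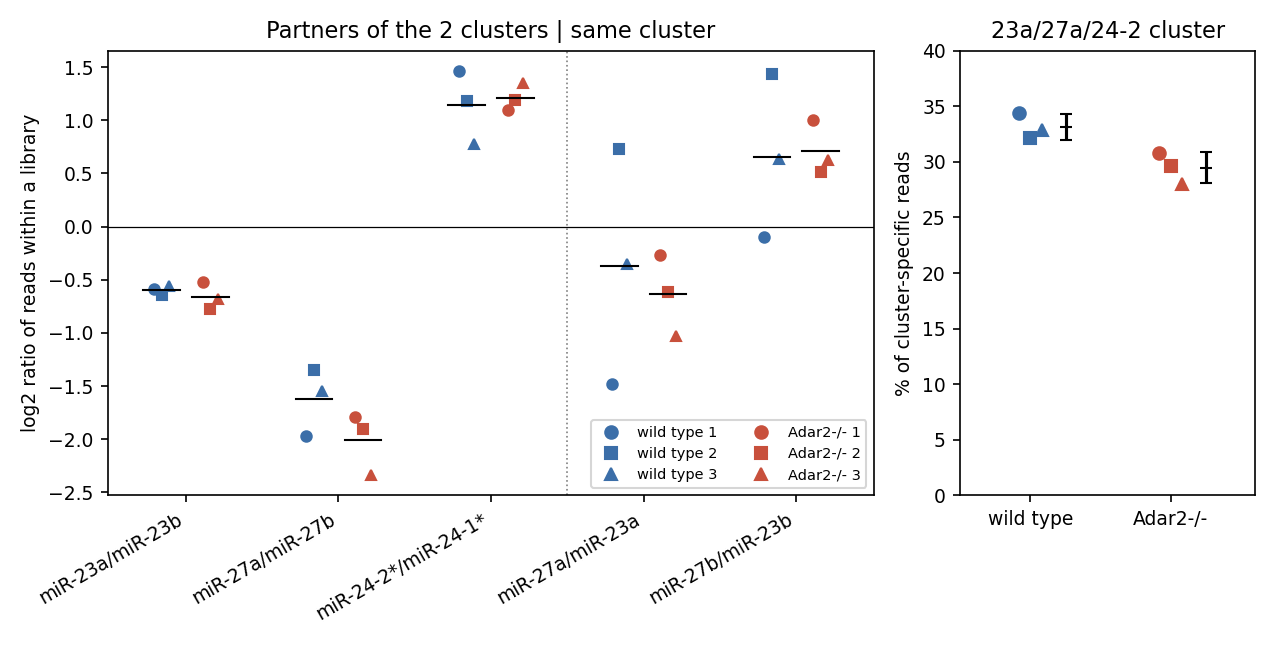
Left, log2 ratio of the reads of 2 arms within each library, with the 3 ratios between clusters before the dotted line and the 2 ratios within a cluster after it, and black bars for the means of 3 libraries. Right, percent of the cluster-specific reads on the 23a/27a/24-2 cluster in each library, with mean and SD, where the wild-type libraries lie between 32.2% and 34.4% and the Adar2-/- libraries between 28.0% and 30.8%.

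Outside the clusters, the miRNAs whose log2 RPM was most like that of a guide over the 6 libraries were chosen by the highest Pearson's r among the tested miRNAs, without a test. They were miR-1957 (r = 0.997) and miR-7a (r = 0.989) for miR-23a, and miR-7a (r = 0.999) and miR-376c (r = 0.989) for miR-23b. For miR-27a they were miR-652 (r = 0.989) and miR-138 (r = 0.977). miR-138, known from neurons, was lowest in wild-type replicate 1, at 6872 RPM. For miR-27b they were miR-592 (r = 0.986) and miR-379* (r = 0.948), and for miR-24 miR-16 (r = 0.988) and miR-410 (r = 0.984). miR-7a, known from endocrine and neurosecretory cells, stood at 2976, 898 and 1423 RPM in wild type and 1120, 2390 and 3585 RPM in Adar2-/-, high and low in the same libraries as miR-23b.

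Markers of the cell types that a whole brain holds were present in every library, with none of the listed miRNAs in the tables at 0. The 4 vascular miRNAs (miR-126-3p, miR-126-5p, miR-143 and miR-145) summed to 52641 to 80298 RPM in wild type and 50321 to 61659 RPM in Adar2-/-. The 4 neuronal miRNAs (miR-124, miR-128, miR-9 and miR-138) summed to 126795 to 172986 RPM and 132484 to 144969 RPM. Their sum was highest in wild-type replicate 1, the library in which miR-138 and miR-27a were lowest. The 3 oligodendrocyte miRNAs found (miR-219-5p, miR-338-3p and miR-338-5p) summed to 440 to 673 RPM and 490 to 809 RPM. The 6 blood miRNAs ranged from 1253 to 3561 RPM and from 2166 to 2955 RPM, and the 2 of the choroid plexus (miR-204 and miR-211) from 838 to 1584 RPM and from 1064 to 1622 RPM. The 2 endocrine miRNAs, miR-375 and miR-7a, summed to 6270 RPM in wild-type replicate 1, against 1010 and 1466 RPM in the other wild-type libraries and 1192 to 3640 RPM in Adar2-/-. The oligodendrocyte and choroid plexus sums were lowest in wild-type replicate 1, at 440 and 838 RPM. Wild-type replicate 1 was also the library in which miR-24-2* and miR-24-1* stood highest. The part of its cell content in those levels was not tested.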

How the data were processed

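Small RNA reads were counted in 6 brains, 3 per genotype. The authors removed adaptors from reads of 36 bases with Cutadapt, mapped them with NextGenMap to miRBase release 16 at 90% identity (about 2 mismatches), discarded reverse-strand hits and gave weights to reads that matched several miRNAs equally well. Deposited were 3 tables of raw read counts, without normalization, each with 1 wild-type and 1 Adar2-/- library. How the weights became whole numbers, and the versions of the tools, are not given in the sources used here. Columns were mapped to samples by the genotype in their name and the replicate number of the table, and 12 blank lines were dropped. Each brain is a separate animal. Adar2 mRNA is not measured in these tables, so the genotype labels were not checked here. The totals of 12449633 to 23935544 reads give narrow counting intervals, and the spread between brains limits the precision.

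The quasi-likelihood test of edgeR 4.0.16 (R 4.3.3) was run on the counts of 399 miRNAs, those that had a minimum of 100 reads throughout. Library size was the sum of all miRNA counts, unscaled, and the model held the genotype alone. P-values were adjusted by Benjamini-Hochberg over all 399, with a threshold of 0.05. Standard errors are the absolute log2 fold change divided by the square root of F. Ratios of 2 rows within a library were computed where both had at least 10 reads in every library and compared by two-sided exact permutation tests. Alternatives were DESeq2 1.42.0, TMM factors, library sizes that exclude the 5 highest miRNAs, other minima, a replicate block and left-out libraries. Named miRNAs are all rows of both clusters and, for each guide, the 2 outside miRNAs of highest Pearson's r. Rows, lists and ratios were chosen with earlier results of these data known.

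The fit was first tested on simulated data. In these data 200 of the 399 miRNAs were changed, and counts were drawn independently for each miRNA. At an adjusted p under 0.05 edgeR recovered 42.5% of the 2-fold changes and DESeq2 66%, with 4 and 6 calls among unchanged miRNAs. At 4-fold both recovered 97%, with 7 and 12 such calls. With fewer changed miRNAs the adjusted threshold is stricter, so these rates need not hold for the real libraries. Changes smaller than 2-fold were not simulated, so a row that was not called may still differ. Ratios, intervals and figures were made in Python 3.11.15 (scipy 1.17.1, pandas 2.3.3, numpy 2.4.6, matplotlib 3.10.9). Sequences are from RefSeq (GRCm38.p6) and positions from an exact match to NCBIM37 with GENCODE annotation.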

Additional observations from a re-analysis of the deposited data

How the results depend on the processing

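None of the 8 rows tested was called under any alternative. Over all 399 miRNAs edgeR called 0, DESeq2 called 1 and edgeR without replicate 1 called 18, with 13, 40 and 87 at an unadjusted p under 0.05. miR-27b and miR-24 kept their direction throughout, from 0.11 to 0.61 and from 0.07 to 0.66 on the log2 scale. The other 6 turned in at least 1 alternative. No pairing by replicate number was seen. Wild-type and Adar2-/- libraries of the same number correlated at -0.0010, -0.08 and -0.01 in their deviations from the group means. Of the 6 libraries, 0 correlated best with its own number. With 3 libraries per genotype these values cannot exclude a pairing. With the replicate block the log2 fold change was 0.25 for miR-24-2*, 0.14 for miR-24-1* and 0.00052 for miR-27a, and with TMM factors as well 0.23, 0.13 and 0.0049. With library sizes that exclude the 5 highest miRNAs that of miR-27b* was -0.014. With 10 reads added to both counts the genotype difference of miR-27a to miR-27a* was 0.059. Leaving out libraries gave the widest ranges of log2 fold change, from -0.13 to 0.87 for miR-23a, -0.056 to 0.99 for miR-23b, -0.24 to 0.22 for miR-27a, -0.67 to 1.15 for miR-24-2*, -0.41 to 0.81 for miR-24-1* and -0.28 to 0.42 for miR-27b*. The genotype differences in log2 ratios then ran from -0.67 to -0.19 for miR-27a to miR-27b, -0.13 to -0.0056 for miR-23a to miR-23b, -0.18 to 0.29 for miR-24-2* to miR-24-1*, -0.83 to 0.48 for miR-27a* to miR-27b*, -0.37 to 0.21 for miR-27a to miR-27a*, -0.10 to 0.80 for miR-27b to miR-27b*, -1.01 to 0.28 for miR-27a to miR-23a and -0.47 to 0.55 for miR-27b to miR-23b. The chromosome 8 cluster's log2 ratio of mean RPM then ran from -0.18 to 0.46 and that of the chromosome 13 cluster from 0.035 to 0.71. For the share of cluster-specific reads on the chromosome 8 cluster, the genotype difference was -1.24 percentage points without the miR-27 rows. It was -5.44 without the miR-23 rows and 1.02 with star arms alone. These alternatives were chosen after seeing the data. The cause of these changes was not tested. miR-23a*, miR-23b* and miR-27a* had too few reads for the edgeR test, and of these only miR-27a* entered the ratios. The part of depth in the values of the other rows was not tested. With 3 brains per genotype the exact tests could not pass the threshold.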
